A study of Mus musculus with 42 samples.

Results

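The 4 genes described here, Clock, Arntl, Npas2 and Arntl2, encode the activators of the mammalian circadian clock. They were taken by name from the 21938 protein-coding genes of the mouse annotation, and each was placed against the lamina-associated domains (LADs) of 14 liver libraries. LADs were mapped by chromatin immunoprecipitation and sequencing (ChIP-seq) of the nuclear lamina protein lamin B1 (LMNB1), 1 library per mouse and 2 mice per time point. All mice were wild-type C57Bl/6. The non-synchronized (NS) mice were taken at noon, 18 h before entrainment. The others were fasted for 24 h and refed ad libitum from circadian time 0 (CT0), at lights-on. They were taken at CT0, when refeeding began, and at CT6, CT12, CT18, CT24 and CT30. The labels call the source female in 1 field and male in another, the methods of the study state male, and the age is not given in the sources used here. The deposited LADs carry no expression, so the labelled tissue was not checked against liver markers.

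CLOCK and BMAL1, the product of Arntl, form a heterodimer of basic helix-loop-helix PAS proteins that binds E-box elements and activates Per, Cry and Nr1d1 genes, whose products in turn repress the heterodimer or the Arntl gene. NPAS2 is a paralog that can take the place of CLOCK, and ARNTL2 (BMAL2) is a paralog of BMAL1. LADs are long domains, mostly gene-poor and of low expression, which contact the nuclear lamina at the nuclear periphery.

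The genes lie on 4 chromosomes of GRCm38/mm10. Clock (ENSMUSG00000029238) spans chr5:76209868-76304792 on the minus strand, and Arntl (ENSMUSG00000055116) spans chr7:113207465-113314126 on the plus strand. Npas2 (ENSMUSG00000026077) spans chr1:39193731-39363236 and Arntl2 (ENSMUSG00000040187) spans chr6:146796055-146833529, both on the plus strand. The 250 bases upstream of the RefSeq start of the core pair are printed because these starts are the gene edges that faced the nearest LAD in all 14 libraries. The Clock sequence is chr5:76304793-76305042, minus strand, and the Arntl sequence is chr7:113207215-113207464, plus strand (RefSeq, GRCm38.p6). Capitals mark the letters ATTGG or their reverse complement, the core of the CCAAT box.
Clock: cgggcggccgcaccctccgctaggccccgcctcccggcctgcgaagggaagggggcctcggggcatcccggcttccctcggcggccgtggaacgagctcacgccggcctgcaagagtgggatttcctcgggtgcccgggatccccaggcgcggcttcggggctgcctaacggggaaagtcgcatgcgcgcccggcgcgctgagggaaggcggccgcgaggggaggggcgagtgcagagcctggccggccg
Arntl: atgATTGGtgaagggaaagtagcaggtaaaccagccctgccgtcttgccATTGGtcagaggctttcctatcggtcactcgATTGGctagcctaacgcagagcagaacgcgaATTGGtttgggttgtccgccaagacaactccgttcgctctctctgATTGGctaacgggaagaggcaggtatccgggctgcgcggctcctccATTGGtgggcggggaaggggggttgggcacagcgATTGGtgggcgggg
The Arntl sequence held ATTGG 7 times and the other 3 genes 0 times, where 33.8% of the 32851 RefSeq promoters hold it at least once on either strand. The E-box CACGTG (6.02% of the promoters) and the half-site AGGTCA (14.02%) were absent from the 250 bases of all 4 genes. Just past its start, Arntl held a pair of matches to the response element of the ROR and REV-ERB nuclear receptors, shown because it is the known entry point of that feedback loop. They were AAAGTAGGTTA at chr7:113207501-113207511, 36 bases past the start, and AAAGTAGGTCA at chr7:113207537-113207547, 72 bases past it. At least 1 match to these 11 letters, with any base at the last position but 1 and on either strand, occurred in 0.0609% of the promoters. The window for this share was the 250 bases before and the 50 bases after the start. It takes in only the first of the Arntl sites, so it gives no share for a pair. The RefSeq start lies 541 bases past the annotated start in Npas2 and 9475 bases past it in Arntl2.

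None of the 4 genes overlapped a LAD in any of the 14 libraries, where 17.1% of all protein-coding genes overlapped a LAD in at least 1 library and 0.884% in all 14. All 4 stayed at least 1 Mb from every LAD in every library, as did 59.5% of all genes. The libraries held 86 to 341 LADs each, 2845 in all, and covered 335.3 to 663.0 Mb. Their LAD starts lay on grids of 4 to 61 kb, called the bin size here, and the coarsest grid and lowest coverage were those of NS replicate 1. The files give no score or read count for a LAD, so the depth behind each border is unknown.

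Distances ran from the edge of the gene to the facing border of the nearest LAD. Over the 14 libraries the median distance was 1.52 Mb for Clock, 4.44 Mb for Arntl, 5.44 Mb for Npas2 and 12.9 Mb for Arntl2. These medians stood at percentiles 26.5, 54.1, 60.03 and 84.1 of the medians of all genes, whose own median was 3.91 Mb. Clock was the closest of the 4 to a LAD in 13 libraries and Npas2 in 1, and Arntl2 was the farthest in 12 and Arntl in 2. The ranges of Arntl (4.30 to 17.9 Mb) and Npas2 (1.46 to 6.86 Mb) overlapped, as did those of Arntl and Arntl2 (7.24 to 34.7 Mb). In the intersects of the 2 mice, which hold base pairs covered in both, the median of the 7 time points was 1.61 Mb for Clock, 17.6 Mb for Arntl, 6.33 Mb for Npas2 and 13.1 Mb for Arntl2, and Arntl became the farthest. In the unions of the 2 mice the medians were 1.40, 4.38, 4.89 and 7.48 Mb, with Arntl2 the farthest.

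**Figure D1:**
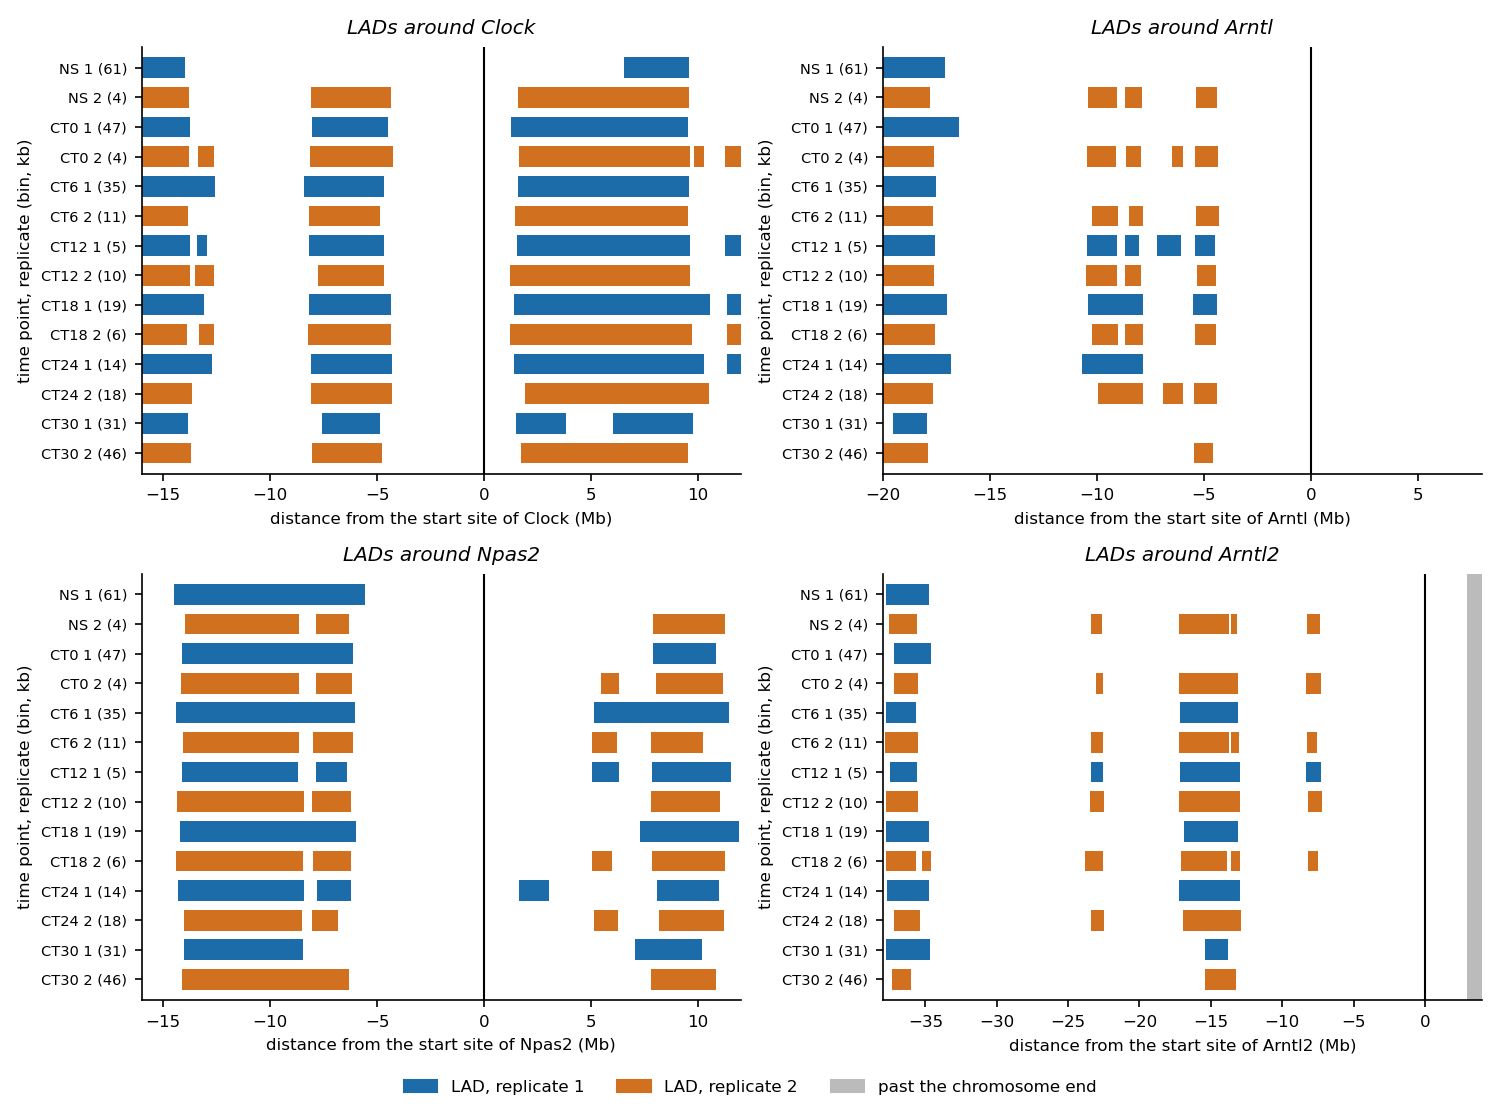
LADs around each gene in every library. The x axis is the distance from the start site in Mb, with the centromere to the left and the start site at the vertical line, each row is 1 library with its bin size in kb, blue bars are LADs of replicate 1 and orange bars LADs of replicate 2, and grey marks the part past the chromosome end. Clock and Npas2 had LADs on both sides, and Arntl and Arntl2 on the centromere-proximal side only.

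Clock, whose product is the activator with histone acetyltransferase activity, lay between 2 LADs, and the one on the centromere-distal side was the nearer in 14 of 14 libraries. The distance to it was 6.53 and 1.57 Mb in NS replicates 1 and 2, 1.25 and 1.61 Mb at CT0, 1.61 and 1.43 Mb at CT6, 1.54 and 1.22 Mb at CT12, 1.39 and 1.20 Mb at CT18, 1.40 and 1.92 Mb at CT24, and 1.51 and 1.71 Mb at CT30. NS replicate 1 stood apart, and the other 13 libraries lay between 1.20 and 1.92 Mb. A LAD occupied the region chr5:77508001-86849000 in every library, with a median size of 8.08 Mb. It measured 3.05 Mb in NS replicate 1, where it began 5.33 Mb farther from Clock than in the library with the nearest border. In CT30 replicate 1 the LAD next to Clock measured 2.33 Mb, and a farther LAD of the region lay 6.03 to 9.75 Mb from the start of Clock. Of the 91 pairs of libraries, 90 differed on this side by a shift of the border. In 1 pair the nearest LADs of the 2 libraries shared no base pair, counted as a LAD appearing or lost. That pair was NS replicate 1 with CT30 replicate 1, whose farther LAD did overlap the LAD of NS replicate 1. Adgrl3, which encodes the adhesion receptor latrophilin 3, started inside the nearest LAD of this side in 12 libraries, and Epha5, which encodes an ephrin receptor, in 13.

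Between CTs the distance from Clock to this nearest LAD varied no more than between mice of a CT. The mean was 1.43 ± 0.256 Mb at CT0, 1.38 ± 0.226 Mb at CT12 and 1.66 ± 0.373 Mb at CT24 (SD, n = 2 each). The ratio of the variance between and within time points was 0.775 (p = 0.597, exact one-sided permutation test over the 10395 divisions of the 12 CT libraries into 6 pairs), with a Benjamini-Hochberg adjusted p of 0.941 over all genes tested. No gene of the 20370 tested was called at an adjusted p of 0.05 (0%), and 5.44% had an unadjusted p under 0.05. Leaving out any 1 of the 12 libraries gave a ratio for Clock of 0.438 to 1.62, the highest without CT24 replicate 1. A 24 h cosine took a share of 0.279 of the sum of squares for Clock (permutation test with 100000 reassignments, p = 0.227, adjusted p = 0.770), again with 0% of genes called and 5.01% at an unadjusted p under 0.05.

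On the centromere-proximal side Clock faced a LAD of 2.73 to 3.90 Mb in the region chr5:67900001-72040000, present in 13 of 14 libraries. The distance to the LAD on this side was 13.9 and 4.25 Mb in NS replicates 1 and 2, 4.39 and 4.17 Mb at CT0, 4.56 and 4.76 Mb at CT6, 4.56 Mb in both mice at CT12, 4.24 and 4.25 Mb at CT18, 4.22 and 4.23 Mb at CT24, and 4.75 and 4.68 Mb at CT30. In NS replicate 1 this LAD was absent and the next one, at chr5:54778001-62342000, became the nearest, which accounts for all 13 pairs of libraries with a LAD appearing or lost on this side. In the other libraries the border moved within 595 kb, with the values at CT0, CT18 and CT24 all below those at CT6, CT12 and CT30. The 2 CT12 libraries placed the border on the same base pair.

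Each of the 5 steps between consecutive CTs was a shift of this border in which the 2 earlier mice did not overlap the 2 later ones. The closest mice were only 0.005 Mb apart from CT6 to CT12 and 0.01 Mb apart from CT18 to CT24. These gaps were smaller than the bins of CT6 replicate 1 (35 kb), CT18 replicate 1 (19 kb) and CT24 replicate 2 (18 kb). All 5 steps were free of overlap for 2.61% of the 16454 genes tested on this side. The border moved away from Clock from CT0 to CT6 and from CT24 to CT30. Of the 16132 genes compared on this side, 11.1% and 41.7% moved away without overlap in these steps. The border moved toward Clock from CT6 to CT12 (17.5% of these genes), from CT12 to CT18 (29.4%) and from CT18 to CT24 (7.19%). The mean distance went from 4.28 ± 0.158 Mb at CT0 to 4.66 ± 0.141 Mb at CT6, and from 4.22 ± 0.00424 Mb at CT24 to 4.72 ± 0.0530 Mb at CT30 (SD, n = 2 each).

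A 24 h cosine took a share of 0.886 of the sum of squares of this distance over the 12 CT libraries (permutation test with 100000 reassignments, p = 0.000490), and the adjusted p of 0.105 did not pass 0.05. Fitted to the distance without logarithm, the share was 0.885. The amplitude of this fit was 286 kb around a mean of 4.44 Mb, with the largest distance at CT 8.32 h. Also without logarithm, the share was 0.848 in replicate 1 alone and 0.940 in replicate 2 alone. The largest distance was at 8.07 h and 8.52 h, each from 6 libraries and without a test. No gene on this side was called (0%), and 6.82% had an unadjusted p under 0.05. Of the 75 genes with a p no larger than that of Clock, 23 lay in the same LAD-free stretch as Clock and so share its border, and the 75 genes shared 6 distinct border profiles among the 3163 of all genes tested. The time-point variance ratio on this side was 12.6 for Clock (exact one-sided permutation test, p = 0.0118, adjusted p = 0.515), where 0% of genes were called and 8.18% had an unadjusted p under 0.05. Leaving out any 1 of the 12 libraries gave a cosine share of 0.873 to 0.923 and a variance ratio of 8.94 to 25.4, with 25.4 without CT0 replicate 1 and 21.3 without CT0 replicate 2. The coverage of the libraries also differed between time points, from 392.4 and 405.4 Mb in the CT30 mice to 617.9 and 663.0 Mb in the CT18 mice, and its part in the border positions was not tested. The spread of repeated LAD calls on 1 library was not analysed here. The study ran its LAD caller repeatedly on each library and held that the variation had no significant effect on LAD calling. The median length it gives for this variation, over all LADs, is similar in size to the fitted amplitude. Its part in the border positions was not tested. The labels list 1 input sample per time point, so a part of the input could not be told apart from that of time.

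**Figure D2:**
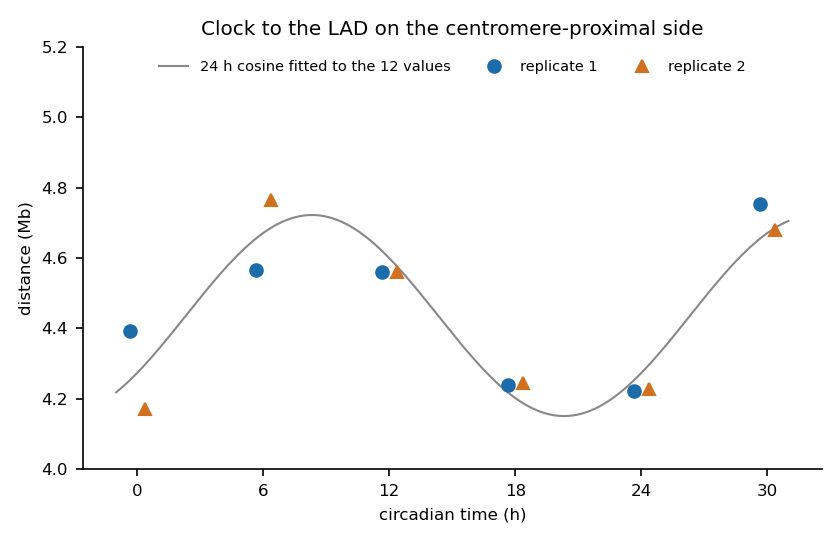
Distance in Mb (y axis, from 4 Mb) from Clock to the LAD on its centromere-proximal side against circadian time in h (x axis) in the 12 CT libraries. Circles are replicate 1, triangles replicate 2, and the grey line is the fitted 24 h cosine with an amplitude of 286 kb; the CT0, CT18 and CT24 points lie below the CT6, CT12 and CT30 points.

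The border ran through Gabrb1 and Gabra4, neighbouring genes for subunits of the GABA-A receptor. Gabrb1 (chr5:71658113-72149037) overlapped the LAD in 7 libraries, which were NS replicate 2 and both mice at CT0, CT18 and CT24, and in neither mouse at CT6, CT12 and CT30. The start of Gabra4 (chr5:71569749-71658308, minus strand) lay in the LAD in the same 7 libraries, and its body overlapped the LAD also in CT6 replicate 1 and both CT12 mice. Cox7b2, a gene for a cytochrome c oxidase subunit, overlapped the LAD in 13 libraries and started inside it in 10. Clock itself stayed more than 4 Mb from this border throughout.

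Arntl, which encodes BMAL1, had a LAD on its centromere-proximal side only. No library held a LAD between Arntl and the chromosome end 32.1 Mb away, and the LAD-free stretch around it was 36.5 Mb long with 472 genes, at percentile 95.2 of all genes. The nearest LAD stood at 17.1 and 4.38 Mb in NS replicates 1 and 2, 16.4 and 4.36 Mb at CT0, 17.5 and 4.30 Mb at CT6, 4.48 and 4.41 Mb at CT12, 4.38 and 4.40 Mb at CT18, 7.86 and 4.38 Mb at CT24, and 17.9 and 4.56 Mb at CT30. The values fell into a low set of 9 libraries and a high set of 5, and all 5 high libraries were labelled replicate 1. The names of the deposited files give 3 of the 14 libraries another number than the sample titles used here, and number the same 5 libraries 1.

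The low values came from a LAD of 0.89 to 1.10 Mb in the region chr7:107730001-108911000, whose facing border moved within 259 kb. This LAD covered olfactory receptor genes, which encode odorant receptors, and Olfr513, Olfr512 and Olfr510 were those nearest to Arntl that started inside it in at least 7 libraries. It was present in 7 of 7 replicate 2 libraries and in 2 of 7 replicate 1 libraries. Where it was absent, the nearest LAD was at chr7:102522001-105350000 in CT24 replicate 1 and within chr7:92750001-96773000 in the other 4. The bin sizes were 4 to 46 kb in libraries with the LAD and 14 to 61 kb in those without, and the part of bin size and of replicate number was not tested.

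The change in distance of Arntl was thus a LAD appearing or lost in 49 of 91 pairs of libraries, a border shift in 41 and the same border in 1. A LAD appearing or lost changed the distance by 3.30 to 13.6 Mb, and a border shift by at most 1.48 Mb with a median of 0.083 Mb. Of the 7 pairs of mice of the same time point, 5 differed by this LAD. Between time points the mean was 10.4 ± 8.54 Mb at CT0, 4.44 ± 0.0530 Mb at CT12 and 6.12 ± 2.46 Mb at CT24 (SD, n = 2 each), a spread within time points that was as large as the differences between them (variance ratio 0.460, exact one-sided permutation test, p = 0.798, adjusted p = 0.992). Leaving out any 1 library gave a ratio of 0.325 to 0.975. The 24 h cosine gave p = 0.317 by permutation test and an adjusted p of 0.783.

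**Figure D3:**
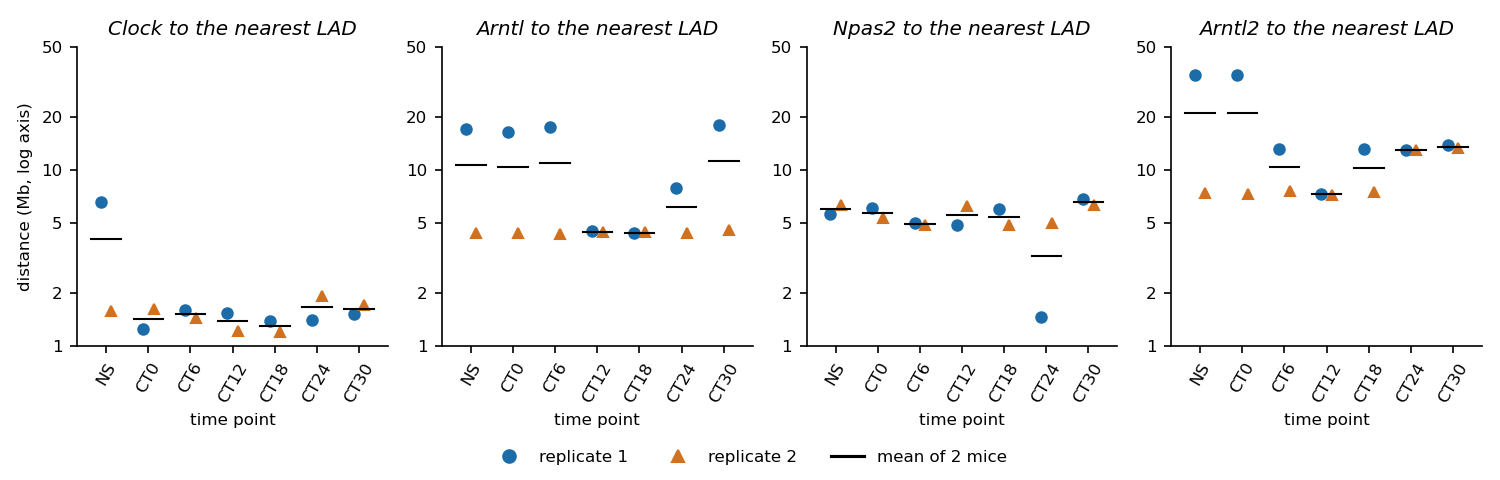
Distance in Mb (y axis, log scale) from each gene to its nearest LAD at each time point (x axis). Circles are replicate 1, triangles replicate 2 and bars the mean of 2 mice; for Arntl the replicate 2 mice stay within 4.30 to 4.56 Mb while 5 replicate 1 mice stand at 7.86 Mb or above.

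Npas2, the paralog of Clock, had a LAD on each side, and the nearest one was on the centromere-proximal side in 6 libraries and on the distal side in 8. The distance to the nearest LAD was 5.58 and 6.33 Mb in NS replicates 1 and 2, 6.11 and 5.29 Mb at CT0, 4.98 and 4.87 Mb at CT6, 4.89 and 6.20 Mb at CT12, 5.98 and 4.87 Mb at CT18, 1.46 and 4.97 Mb at CT24, and 6.86 and 6.30 Mb at CT30. Apart from CT24 replicate 1, the libraries lay between 4.87 and 6.86 Mb. The variance ratio was 1.44 (exact one-sided permutation test, p = 0.196, adjusted p = 0.926). It was 27.1 without CT24 replicate 2, which leaves the 1.46 Mb of the other mouse alone at CT24 (p = 0.0245 by the same permutation test, adjusted p = 0.943). For all 12 libraries the 24 h cosine gave p = 0.614 by permutation test (adjusted p = 0.888).

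The centromere-proximal LAD of Npas2 was found in 14 of 14 libraries in the region chr1:25909752-33611000. Its distance was 5.58 and 6.33 Mb in NS replicates 1 and 2, 6.11 and 6.19 Mb at CT0, 6.01 and 6.14 Mb at CT6, 6.38 and 6.20 Mb at CT12, 5.98 and 6.21 Mb at CT18, 6.24 and 6.81 Mb at CT24, and 8.44 and 6.30 Mb at CT30. In 5 libraries, with bin sizes of 19 to 61 kb, 1 LAD of 6.98 to 7.70 Mb ran across the region. In 8 libraries, with bin sizes of 4 to 18 kb, the part next to Npas2 was a LAD of its own of 1.21 to 1.84 Mb. CT30 replicate 1, with a bin size of 31 kb, lacked this near part, and its nearest LAD was the far part of 4.84 Mb. The start of the region is a break at which 2 LADs abut within 1 bp in all 14 libraries, so the sizes of the long LADs end at that break. Of the 91 pairs, 83 differed by a border shift with a median of 0.208 Mb. These include CT30 replicate 1 against the 5 libraries with the long LAD, with shifts of 2.14 to 2.86 Mb. The class of a pair with CT30 replicate 1 thus depended on whether the other library joined the near and far parts. The other 8 pairs all set CT30 replicate 1 against a library with the short LAD. Khdrbs2, which encodes an RNA-binding protein of the STAR family, started inside this LAD in 13 libraries. The variance ratio on this side was 1.23 (exact one-sided permutation test, p = 0.186, adjusted p = 0.839). It was 17.4 without CT30 replicate 2, which leaves the 8.44 Mb of the other mouse alone at CT30 (p = 0.0174 by the same permutation test, adjusted p = 0.525).

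On the distal side of Npas2 the LADs were less constant. The distance was 58.7 and 7.74 Mb in NS replicates 1 and 2, 7.73 and 5.29 Mb at CT0, 4.98 and 4.87 Mb at CT6, 4.89 and 7.61 Mb at CT12, 7.11 and 4.87 Mb at CT18, 1.46 and 4.97 Mb at CT24, and 6.86 and 7.65 Mb at CT30. In 12 libraries the LAD lay in the region chr1:44231001-51110000, with 6 libraries at 4.87 to 5.29 Mb and 6 at 6.86 to 7.74 Mb. NS replicate 1 had no LAD nearer than chr1:98088001-103517000, and CT24 replicate 1 alone had a LAD of 1.39 Mb at chr1:40824001-42210000, the closest approach of a LAD to Npas2. A LAD appearing or lost made up 55 of 91 pairs on this side, 5 of them among the 7 pairs of the same time point. The 6 libraries with the nearer border had bin sizes of 4 to 35 kb and the 6 with the farther border of 4 to 47 kb. The libraries did not overlap in 3 steps on this side. They were closer at CT0 than in NS (13.8% of the 13433 genes compared on this side) and closer at CT6 than at CT0 (18.8%). NS replicate 2 and CT0 replicate 1 were only 0.006 Mb apart, below the bin size of 47 kb of CT0 replicate 1. From CT24 to CT30 all 4 pairs moved away through a LAD appearing or lost. Without overlap, 36.9% of the genes compared also moved away from the LAD on this side. The variance ratio was 1.51 (exact one-sided permutation test, p = 0.351, adjusted p = 0.904) and the cosine gave p = 0.627 by permutation test (adjusted p = 0.937), where 0% of the 13895 genes tested were called and 6.03% and 4.76% had an unadjusted p under 0.05. The ratio was 8.06 without CT24 replicate 2 (p = 0.0556 by the same permutation test, adjusted p = 0.927) and 0.778 without CT24 replicate 1.

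Arntl2, the paralog of Arntl, lay 2.90 Mb from the end of its chromosome and had LADs on the centromere-proximal side only. The nearest LAD stood at 34.7 and 7.35 Mb in NS replicates 1 and 2, 34.6 and 7.30 Mb at CT0, 13.1 and 7.56 Mb at CT6, 7.26 and 7.24 Mb at CT12, 13.1 and 7.48 Mb at CT18, 12.9 Mb in both mice at CT24, and 13.8 and 13.3 Mb at CT30. The distances took 3 levels, one for each LAD region that could be the nearest. The first, chr6:138435001-139560000, held a LAD of 0.70 to 1.11 Mb in 6 libraries, and these were the 6 libraries with bin sizes of 4 to 11 kb. The second, chr6:129570001-133884000, was the nearest in 6 libraries with bin sizes of 14 to 46 kb. The third, chr6:109007001-112189000, was the nearest in NS replicate 1 and CT0 replicate 1, whose bin sizes were 61 and 47 kb. The levels of distance thus followed the order of bin size in all 14 libraries, and whether bin size had a part in them was not tested.

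**Figure D4:**
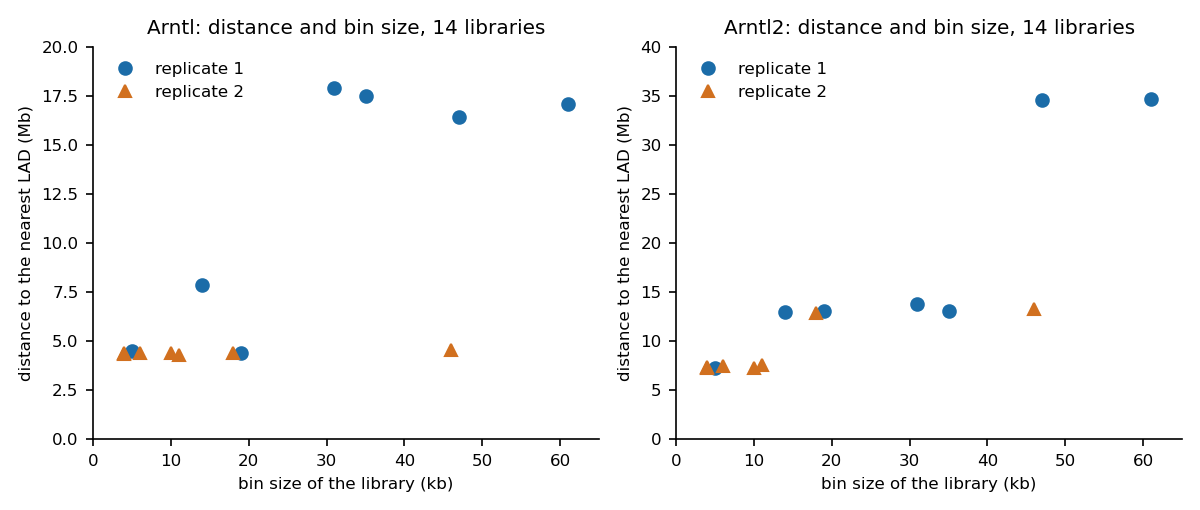
Distance in Mb (y axis) from Arntl (left) and Arntl2 (right) to the nearest LAD against the bin size of the library in kb (x axis), 14 libraries each. Circles are replicate 1 and triangles replicate 2; Arntl2 stands at 7.24 to 7.56 Mb for bins of 4 to 11 kb, at 12.9 to 13.8 Mb for bins of 14 to 46 kb and at 34.6 to 34.7 Mb for bins of 47 and 61 kb.

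Arntl2 was also the only gene of the 4 whose nearest-LAD distances did not overlap in a comparison of NS with CT0, CT0 with CT12 or CT12 with CT24. It was closer to a LAD at CT12 (7.25 ± 0.0141 Mb) than at CT0 (21.0 ± 19.3 Mb, SD, n = 2 each). Without overlap, 19.5% of the 20807 genes compared were also closer, against 9.78% that were farther. CT0 replicate 1, with a bin size of 47 kb, carried the difference of -13.7 Mb for Arntl2, which was -0.05 Mb without it. Arntl2 was farther at CT24 (12.9 ± 0.0113 Mb) than at CT12, as were 16.7% of the same genes, against 14.9% that were closer. For both comparisons p was 0.333 (two-sided exact permutation test), the smallest that 2 mice in each group allow, so this design cannot reach 0.05. From CT12 to CT24 the bin sizes went from 5 and 10 kb to 14 and 18 kb. Over the 6 CTs the variance ratio was 0.627 (exact one-sided permutation test, p = 0.639, adjusted p = 0.943). It was 2.01 without CT0 replicate 1 (p = 0.160 by the same permutation test) and 5.87 without CT0 replicate 2 (p = 0.00731, adjusted p = 0.233). For all 12 libraries the 24 h cosine gave p = 0.214 by permutation test (adjusted p = 0.769). A LAD appearing or lost accounted for 60 of 91 pairs.

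The NS mice before the fast and the CT0 mice after it overlapped in nearest-LAD distance for all 4 genes. They also differed in time of day, noon against lights-on, which cannot be told apart from the fast. Clock stood at 4.05 ± 3.51 Mb in NS and 1.43 ± 0.256 Mb at CT0, and Arntl at 10.7 ± 8.98 Mb and 10.4 ± 8.54 Mb. Npas2 stood at 5.95 ± 0.525 Mb in NS and 5.70 ± 0.578 Mb at CT0, and Arntl2 at 21.0 ± 19.4 Mb and 21.0 ± 19.3 Mb (SD, n = 2 each). The exact two-sided permutation test gave p = 0.667 for each gene. Without overlap, 11.1% of the 20807 genes compared were closer at CT0 and 9.06% farther.

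By the count of LADs appearing or lost, those next to Clock were among the more constant and those next to Arntl2 among the less constant. This count treats a border move of any size as a shift. The range of log10 nearest-LAD distance over the 14 libraries did not show this contrast. It was 0.734 for Clock (percentile 40.9), 0.620 for Arntl (34.7), 0.671 for Npas2 (37.4) and 0.681 for Arntl2 (37.8). The median over 20807 genes was 0.926. A LAD appearing or lost made up 13 of 91 pairs on the centromere-proximal side of Clock and 1 on its distal side, both at percentile 18.9. The percentiles are among genes that overlapped no LAD in any library and lacked a LAD on that side in at most 1. These were 14498 genes on the centromere-proximal and 11529 on the distal side. The centromere-proximal side stood at percentile 13.3 for Npas2, 58.4 for Arntl and 83.4 for Arntl2, and the distal side of Npas2 at percentile 75.0. On the centromere-proximal side of Npas2 this count depended on which libraries joined the near and far parts of the LAD. Over all such genes, 40.7% of pairs on the centromere-proximal and 38.2% on the distal side were a LAD appearing or lost. The surroundings of the 4 genes held 9 (Arntl), 14 (Npas2), 17 (Arntl2) and 19 (Clock) other protein-coding starts within 1 Mb, against a median of 29 over all genes.

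**Figure D5:**
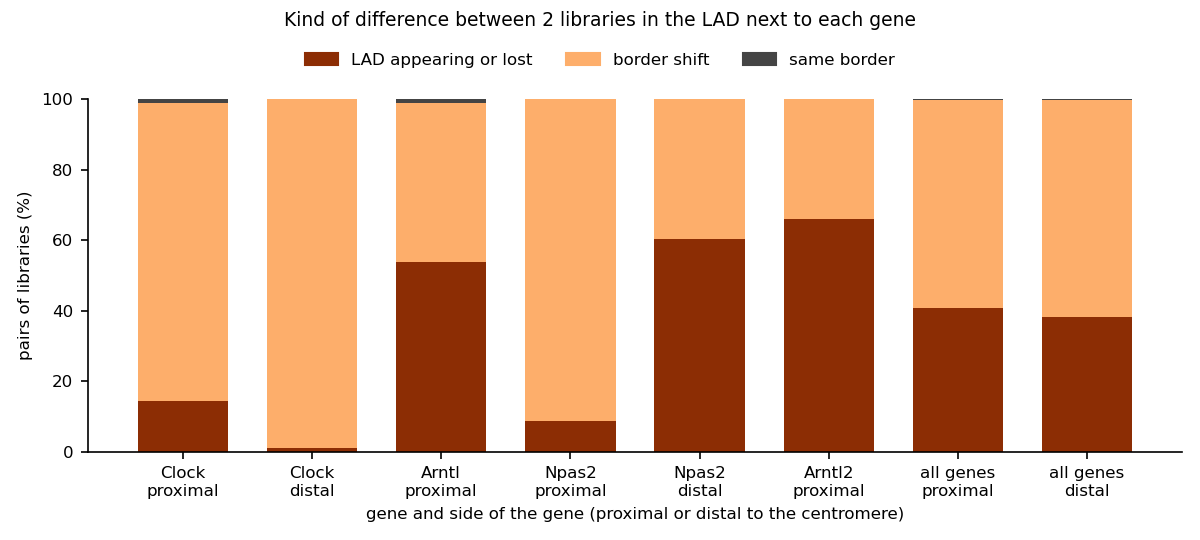
Share in percent (y axis) of the 91 pairs of libraries in which the LAD next to a gene appeared or was lost, had a shifted border or had the same border, for each gene and side (x axis). The bars for all genes cover protein-coding genes that overlapped no LAD in any library and lacked a LAD on that side in at most 1. A LAD appearing or lost makes up 1.10% of pairs on the distal side of Clock and 65.9% on the centromere-proximal side of Arntl2, against 38.2% and 40.7% over these genes.

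The other clock genes were described from a list of 22 repressors, receptors, output factors and kinases of the clock. Of these, 1 overlapped a LAD, Rorb in 12 libraries, and 17 stayed at least 1 Mb from every LAD. Over all protein-coding genes, 17.1% overlapped a LAD in at least 1 library and 59.5% stayed at least 1 Mb away. The median of medians was 4.25 Mb for the list against 4.94 Mb for the 4 activators. Rorb encodes a nuclear receptor of the ROR family. The nearest of the rest was Hlf, a PAR bZIP output factor, at a median of 0.325 Mb, and the farthest was Csnk1d, the kinase that phosphorylates PER proteins, at 27.1 Mb. In a list of 15 other bHLH-PAS genes and coactivators, the structural relatives of the 4 activators, 1 overlapped a LAD, Sim1 in 7 libraries, and 8 stayed at least 1 Mb away. Their median of medians was 2.36 Mb, from Arnt2 at 0.480 Mb to Ncoa3 at 9.76 Mb among those that never overlapped. None of the genes of either list was called in the tests of nearest-LAD distance over the CTs, where 0% of the 20370 genes tested were called. In both lists 0 genes had an unadjusted p under 0.05, against 5.44% (time points) and 5.01% (cosine) of all genes tested.

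The genes on other chromosomes with the most similar profile of log distance over the 14 libraries were named as a description, since all profiles share the same libraries and bin sizes. For Clock they were Adam9, Tm2d2 and Htra4 on chromosome 8 (Pearson r = 0.969 for each). For Npas2 they were Inpp4b (0.960), Phkb (0.959) and Itfg1 (0.959) on chromosome 8, and for Arntl2 they were Tiparp (0.949), Ssr3 (0.947) and Lekr1 (0.946) on chromosome 3.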

How the data were processed

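LMNB1 ChIP-seq of liver from 14 mice was analysed, and the inputs and RNA-seq were not analysed here. The authors mapped reads to mm10 with Bowtie, removed duplicates with Picard, matched each ChIP to the depth of its input, and ran EDD per mouse to call LADs, using average gap penalty and bin size of repeated runs. The deposited files list LAD starts and ends in base pairs, with no score, count or depth, and were used as deposited. Replicate numbers are those of the sample titles. Genes were those of GENCODE vM21. Bin size is the grid step in kb shared by the LAD starts of a library.

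The 4 genes, the gene lists and the comparisons were chosen with earlier results of these data known. Distances ran from the gene body to the facing LAD border and were tested as log10(distance in kb + 1). CTs were compared with exact permutation tests over all 10395 divisions of 12 libraries into 6 pairs, or with a 24 h cosine and 100000 reassignments, per gene and with Benjamini-Hochberg adjustment over all genes whose distance varied. The tests were checked on simulated data. MetaCycle was not run. LADs sharing at least 1 bp counted as a border shift. Named genes were the 4 genes, for each the 3 on another chromosome with the highest Pearson r (not reported here for Arntl), the 3 closest that started in the nearest LAD in at least 7 libraries, and, of the lists, those that overlapped a LAD and the nearest and farthest of the rest. Alternatives were distances without logarithm or from the start site, LADs of at least 1 Mb, intersects and unions of the 2 mice, a replicate block, an overlap of 0.5 of the shorter LAD and each library left out. Python 3.11.15, NumPy 2.4.6 and SciPy 1.17.1 were used. The p-values measure the spread between mice, 2 per time point. The labels list 1 input sample per time point, so differences between inputs cannot be told apart from differences between time points.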

Additional observations from a re-analysis of the deposited data

How the results depend on the processing

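Of the 584 values recomputed under an alternative, 565 kept their direction and side of the threshold, 16 changed direction and 3 moved. All 16 that changed direction were differences in mean nearest-LAD distance between 2 time points of 2 mice, and with a single library left out they had these ranges in Mb: -6.68 to 6.02 for Arntl (positive without NS replicate 1 or CT0 replicate 2), -0.665 to 0.152 for Npas2 (positive without NS replicate 2 or CT0 replicate 2) and -13.8 to 13.6 for Arntl2 (positive without NS replicate 1 or CT0 replicate 2) from NS to CT0. From CT0 to CT12 they were -0.232 to 0.13 for Clock (positive without replicate 2 of either time point), -12.0 to 0.0895 for Arntl (positive without CT0 replicate 1) and -0.810 to 0.506 for Npas2 (positive without replicate 1 of either time point), and from CT12 to CT24 -0.0655 (without CT24 replicate 1) to 3.41 for Arntl. With LADs of at least 1 Mb the difference was 0.194 Mb for Npas2 from NS to CT0 and -1.44 Mb for Arntl from CT12 to CT24, because LADs under that size, such as those next to these genes, then drop out. In the intersects of 2 mice the difference for Npas2 was 0.194 Mb from CT0 to CT12 and 0.428 Mb from CT12 to CT24, and the median distance of Arntl was 17.6 Mb, since its nearest LAD was missing from 1 mouse at 5 time points. In the unions the median of Arntl2 was 7.48 Mb. Leaving out each CT library for the LAD on 1 side of a gene was added after seeing the data. The number of genes called then ran from 0 to 50 for the cosine on the centromere-proximal side (50 without CT12 replicate 1) and from 0 to 45 for the time points on the distal side (45 without CT24 replicate 1), and the cause was not tested. For the cosine on the centromere-proximal side of Clock, the adjusted p ranged from 0.0777 to 0.254 over all alternatives and did not pass 0.05 in any. No test of the 4 genes passed 0.05 after adjustment under any alternative.

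The deviations of same-numbered mice correlated at over 0.1 in 8 of 21 pairs of time points (range -0.118 to 0.510) and not in the others, so the numbers were not taken as pairs. With the replicate block the cosine share for the centromere-proximal side of Clock was 0.888 (permutation test, adjusted p = 0.254), 0 genes were called in any test and no call changed. Depth limits could not be set, as the LADs carry no counts.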
